A study of Rattus norvegicus with 12 samples.

Results

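Collagen genes were read in epididymal adipocytes of male Fisher 344 rats, 6 after 35 days of chronic unpredictable stress (CUS, 2 stressors per day in random order) and 6 control rats that were handled and not stressed. The rats were bought at about 12 weeks of age, carried no transgene, and gave 1 array each. Adipocytes were released from the fat pad with collagenase, an enzyme that digests collagen protein. The labels name adipocytes as the source, while their extraction text speaks of preadipocytes.

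Members were all probes whose gene name on the array design begins with Col, a number, the letter a and another number. This took 36 of 26481 genes, with 49 of 30367 probes. One of these genes is Col4a3bp (Cert1), a ceramide transfer protein that is no collagen and was set apart, which left 48 probes of 35 collagen genes. They comprise 13 probes of fibrillar collagens, 6 of type IV and 29 of other collagens. A further 6 probes that only the probe description names as collagens were kept as an alternative.

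Collagens are the main proteins of the extracellular matrix. Each is built of 3 chains wound around each other, and the winding requires glycine to recur along the chain with 2 other residues in between. Fibrillar collagens (types I, III and V here) form the cables of connective tissue. Type IV forms the sheet of the basement membrane that surrounds every adipocyte and underlies vessels. Type VI makes beaded filaments between cells and fibrils and is a known product of fat tissue. Most of the smaller types sit on fibrils or anchor cells to them. In adipose tissue, fibroblasts, progenitors and mural cells of vessels are strong producers of fibrillar collagens, while mature adipocytes make type IV and type VI.

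Probe sequences show which stretch of each message was read, and they are given for members on either side of the contrast between fibrillar and type IV collagens, and for Col14a1, which also shows the collagen repeat. All are 60 bases long, from the deposited array files, with positions on rat build rn4. The first pair shows the collagen repeat itself, in which the GG of a glycine codon returns 9 bases apart, here in capitals. The Col4a1 probe at base 4291 of its transcript (chr16:83146135-83146194) held the GG at 6 of 6 possible places, which 9 of all 30367 probes did (0.0296%) and 1 of the 48 collagen probes. The Col14a1 probe at base 5363 (chr7:92028347-92028406) held it at 4 of 6 places.
Col4a1: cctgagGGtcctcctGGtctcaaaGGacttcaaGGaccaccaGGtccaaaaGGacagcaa
Col14a1: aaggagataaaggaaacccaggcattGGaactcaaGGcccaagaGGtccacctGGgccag

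In the second set, the Col1a1 and Col3a1 probes lie in the folded end domain that fibrillar collagens share, where related genes can resemble each other. The Col1a1 probe at base 4413 (chr10:83637956-83638015) ends on a stop codon, in capitals. The Col3a1 probe at base 4402 (chr9:44317465-44317524) aligned with it, without gaps, over 26 bases, of which 21 were identical (capitals). The Col4a2 probe at base 4767 (chr16:82900301-82900360, minus strand) is shown because Col4a2 was higher in CUS, and holds no marked motif.
Col1a1: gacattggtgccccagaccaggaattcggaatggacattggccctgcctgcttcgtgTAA
Col3a1: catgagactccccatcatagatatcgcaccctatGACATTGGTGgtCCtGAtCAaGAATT
Col4a2: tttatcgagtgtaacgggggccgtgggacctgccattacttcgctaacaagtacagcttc

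Levels are log2 intensities relative to the 75th percentile of the array, and a difference is CUS minus control. Some facts of the whole series bear on every value. All 6 CUS arrays shared 1 slide and all 6 controls shared a second one, and the slide and the stress therefore cannot be told apart. The 75th percentile was an intensity of 541 to 627 on CUS arrays and of 229.6 to 399.8 on control arrays, while spike-in RNAs were, after this scaling, 0.84 lower in CUS on the log2 scale. Scaled on the spike-ins instead, every difference given here is 0.84 higher and the median of all tested probes lies at 0.83, against -0.02 with the percentile. All statements on direction therefore describe a collagen relative to the other genes of its array. Control replicate 3 stood apart from the other control arrays, with a median correlation of 0.967 to the arrays of its group, against 0.982 to 0.987 for the other controls. It gave the lowest control value for 18 of the 36 tested collagen probes, while it did so for 25.4% of all tested probes. Values without it are given beside each collagen call that changes.

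Of the 48 collagen probes, 36 (28 genes) rose clearly above background (as the scanner software judges it) on 6 or more of the 12 arrays and were tested. Fibrillar collagens were lower in CUS relative to the other genes, Col4a2 and 1 of the 2 Col4a1 probes of type IV were higher, and the rest were mixed. In bulk RNA, fewer cells of a type and less RNA per cell cannot be told apart. In all, 17 collagen probes (47.2%) passed as lower and 3 (8.33%) as higher in limma at an adjusted p of 0.05 over all 19729 tested probes, of which 25.3% were lower and 24.7% were higher. The median difference of the 36 was -0.57. At 2-fold and beyond, 9 collagen probes were lower and 1 was higher, where 8.52% of all tested probes were lower and 3.40% higher. Groups did not overlap for 8 collagen probes lower in CUS (11.2% of all tested probes) and for 1 higher (10.6%). The 1 probe higher by 2-fold and without overlap was the same, Col6a3 at base 7150, which was above background in CUS alone. Scaled on the spike-ins, 12 collagen probes passed as higher and 0 as lower (65.9% and 2.37% of all tested probes). On either scale 30 of the 36 lay below the median of all probes, since a shift common to all probes cannot change this count. Without control replicate 3, 26 passed as lower and 5 as higher (29.9% and 29.6% of all tested probes). With no filter on dim probes, 28 of the 48 passed as lower and 3 as higher (42.3% and 16.7% of all 30367 probes).

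The 12 probes that were not tested include 9 that were not well above background on any array. These 9 read Col8a2, Col9a3, Col10a1 (both probes), Col13a1, Col24a1 and single probes of Col9a1, Col12a1 and Col23a1. Their measured differences ran between -0.99 and -0.39. Over all 7538 probes of the array that were never well above background, the quartiles of the difference were -0.88 and -0.71. A dim probe that lies near background is thus about 0.80 lower in CUS on this scale. This value applies to all dim genes below, also where it is not repeated.

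**Figure D1:**
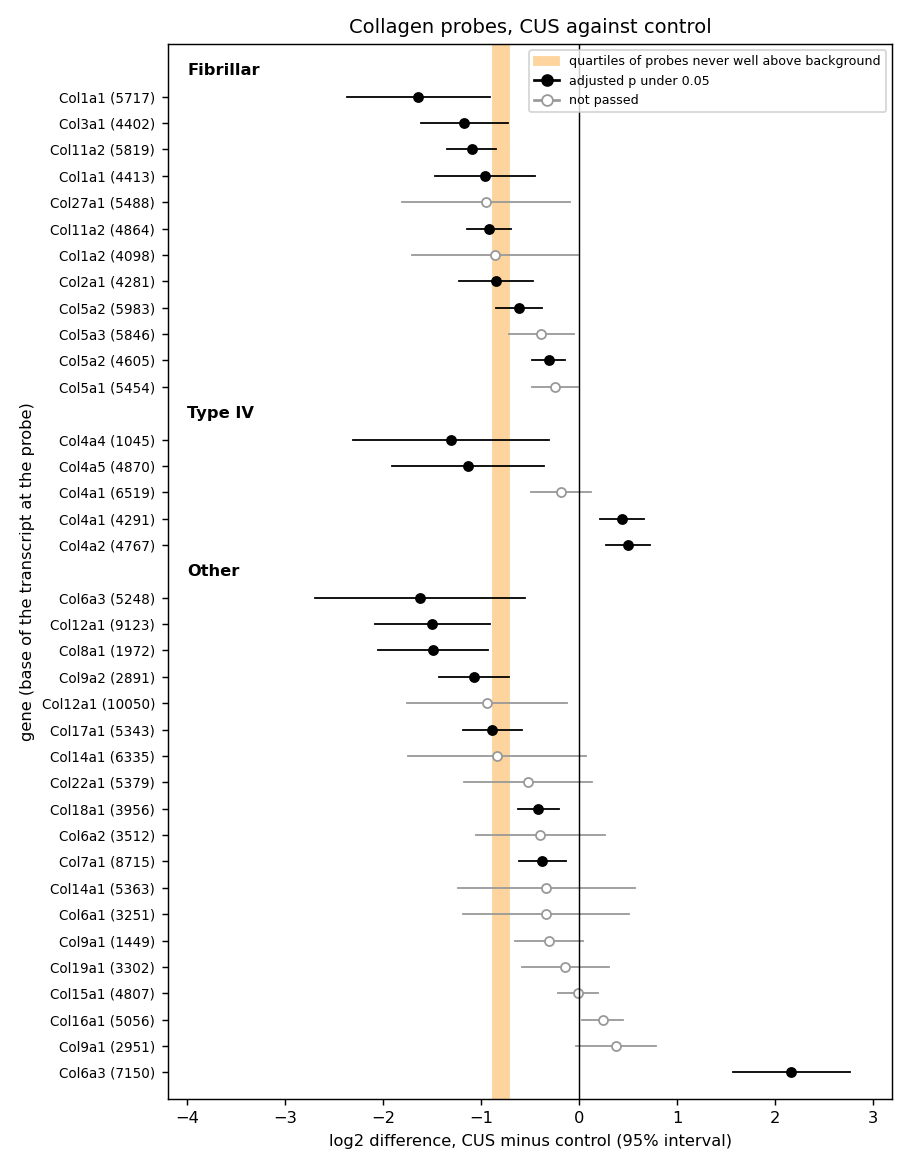
Log2 difference (CUS minus control, relative to the 75th percentile of each array) with its 95% interval for the 36 tested collagen probes, by class. Filled points passed at an adjusted p of 0.05 and open points did not, and the shaded band spans the quartiles of probes never well above background (-0.88 and -0.71). All 12 fibrillar probes lie left of 0, and Col4a1 (base 4291), Col4a2 and Col6a3 (base 7150) pass to the right. Scaled on the spike-ins, every point moves right by 0.84.

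The fibrillar class held 12 tested probes of 9 genes. All 12 differences were negative, 8 passed as lower, 0 as higher and 4 did not pass, with a median of -0.89. Scaled on the spike-ins, the median was -0.05, 3 passed as higher (Col5a1, Col5a2 at base 4605, and Col5a3) and 0 as lower. All 12 lay below the median of all probes, which the change of scale cannot alter. When control replicate 3 was left out, 11 of the 12 passed as lower and the median was -0.97.

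Type I collagen, the commonest collagen of connective tissue, is made of the chains Col1a1 and Col1a2. The Col1a1 probe at base 5717 lay between 2.66 and 4.04 in CUS (median 3.06), against 3.27 to 5.33 in controls (median 5.06). Only control replicate 3, at 3.27, reached into the CUS range, and the other 5 control arrays lay at 4.82 and above. The difference was -1.64 (SE 0.34, n = 6 each, adjusted p = 0.0019 in limma), a level 3.12-fold lower in CUS. It was -0.80 on the spike-in scale, where it did not pass (adjusted p = 0.076).

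The probe in the Col1a1 end domain, at base 4413, gave 1.32 to 2.27 in CUS (median 1.49), against 1.54 to 2.90 in controls (median 2.74). The groups again overlapped only through control replicate 3, at 1.54, with the others from 2.71. The difference was -0.96 (SE 0.23, adjusted p = 0.0051 in limma), 1.95-fold lower. Both Col1a1 probes thus passed in the same direction, with sizes that differ.

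For Col1a2, its partner chain, CUS arrays lay between 4.35 and 5.50 (median 4.71), against 3.63 to 6.14 in controls (median 6.01). Here control replicate 3 was below every CUS array at 3.63, while the other 5 control arrays started at 5.85, above every CUS array. The difference of -0.86 (SE 0.39) did not pass (adjusted p = 0.084 in limma). Without that array it was -1.26 and passed (adjusted p = 0.00011).

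Type III collagen, built of Col3a1 alone, accompanies type I in soft tissue. Col3a1 lay between 4.32 and 4.97 in CUS (median 4.54), against 4.83 to 6.20 in controls (median 5.88). Control replicate 3, at 4.83, was the one control below the highest CUS array, and the next control lay at 5.64. The difference was -1.17 (SE 0.21, adjusted p = 0.00072 in limma), 2.25-fold lower, and without that array it was -1.35. On the spike-in scale it was -0.33 (adjusted p = 0.34).

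Type V collagen sits inside type I fibrils and sets their width, and its 3 chains differed less than types I and III. Col5a2 at base 5983 gave 2.23 to 2.75 in CUS (median 2.61), against 2.96 to 3.36 in controls (median 3.17), with no overlap. Its difference was -0.61 (SE 0.11, adjusted p = 0.00077 in limma). In contrast to type I, control replicate 3 sat with the other controls at 3.33.

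The second Col5a2 probe, at base 4605, lay between 2.93 and 3.099 in CUS (median 3.02), against 3.21 to 3.56 in controls (median 3.31), also without overlap, and differed by -0.31 (SE 0.08, adjusted p = 0.0061 in limma). Control replicate 3 had the highest value of all arrays, 3.56, whereas for Col1a1 it was the lowest control.

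Col5a1 lay between 0.21 and 0.49 in CUS (median 0.30), against 0.16 to 0.83 in controls (median 0.61), a difference of -0.24 that did not pass (SE 0.11, adjusted p = 0.078 in limma). Without control replicate 3, which was lowest at 0.16, it was -0.33 and passed (adjusted p = 0.0055). Col5a3 lay between 4.40 and 4.94 in CUS (median 4.56), against 4.62 to 5.37 in controls (median 5.01). Its difference of -0.38 was close to the threshold (SE 0.15, adjusted p = 0.051 in limma, and 0.011 with quantile normalization). On the spike-in scale the signs of the type V differences turned, to between 0.23 and 0.60.

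The remaining fibrillar members are best known from cartilage and were dim here. Col11a2 at base 4864 gave -5.44 to -4.95 in CUS (median -5.23), against -4.50 to -4.11 in controls (median -4.31), with no overlap, and differed by -0.92 (SE 0.10, adjusted p = 3.6e-05 in limma). Col11a2 at base 5819 gave -4.70 to -4.23 in CUS (median -4.30), against -3.60 to -3.08 in controls (median -3.26), a difference of -1.09 (SE 0.12, adjusted p = 2.3e-05 in limma). Col2a1 was -0.85 (adjusted p = 0.0020) and Col27a1 -0.96 (adjusted p = 0.060). Control replicate 3 was below all CUS arrays for Col27a1, which without it was -1.32 and passed (adjusted p = 0.00077). These 4 probes differed by about as much as probes never above background, and their spike-in differences ran between -0.25 and -0.00.

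Col11a1, which initiates fibrils together with type V, carried no collagen gene name in the array files and was found by its description after its values were seen. Its probe at base 6836 lay between -7.54 and -4.72 in CUS (median -5.85), against -5.97 to -2.01 in controls (median -2.99). It was well above background on 1 CUS array and 5 control arrays, and its difference of -2.74 (adjusted p = 0.0032 in limma) became -1.24 with the normexp background correction, so that its size is not settled. With a second probe, at base 4923, no CUS array and 5 control arrays were well above background. Its control mean was 6.08-fold above a CUS floor on this scale. That floor took, per CUS array, the probe's own value or the dimmest probe above background, whichever was higher. The limit of this probe itself is not known, so that 6.08-fold is no minimum.

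**Figure D2:**
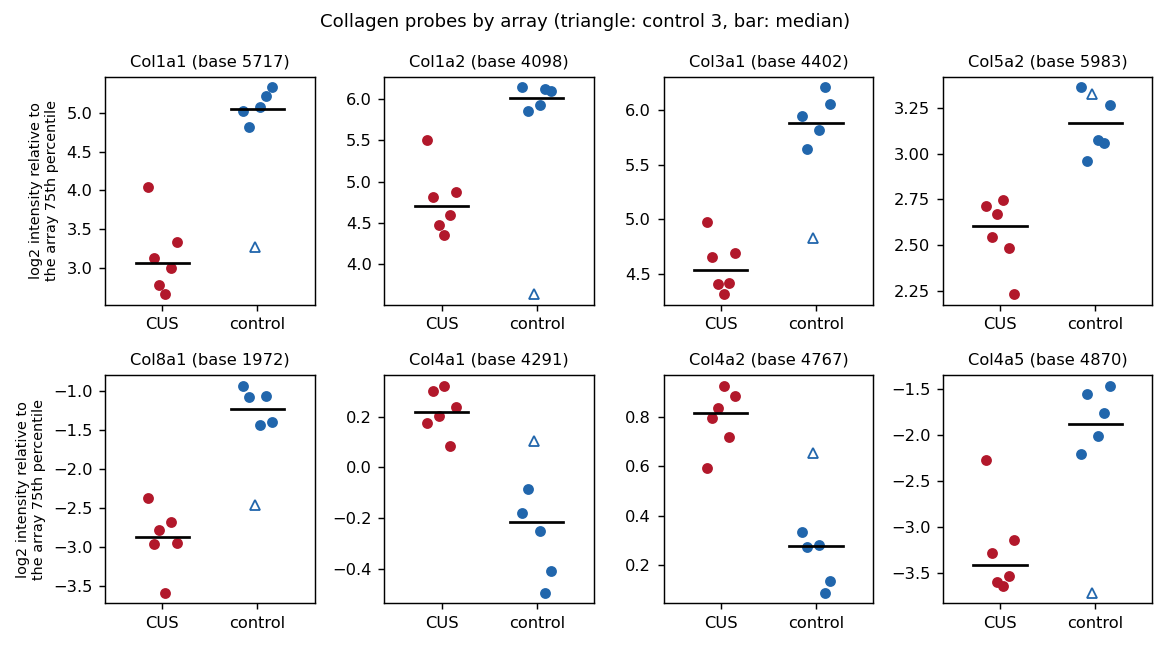
Log2 intensity relative to the 75th percentile of the array for 8 collagen probes, CUS arrays left and control arrays right, with the median as a bar and control replicate 3 as an open triangle. In Col1a1, Col1a2, Col3a1, Col8a1 and Col4a5, control replicate 3 sits with or below the CUS arrays. In Col5a2 it sits with the other controls, and in Col4a1 (base 4291) and Col4a2, where CUS is higher on this scale and on the spike-in scale, it is the highest control.

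Type IV collagen chains pair by gene. Col4a1 and Col4a2 form the basement membrane of most tissues, Col4a3, Col4a4 and Col4a5 that of specialised epithelia, and Col4a5 also joins Col4a6 around smooth muscle. Of 5 tested type IV probes, 2 passed as higher, 2 as lower and 1 did not pass, with a median of -0.18. Scaled on the spike-ins, the median was 0.66, 3 passed as higher and 0 as lower, where 65.9% of all tested probes passed as higher.

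The Col4a1 repeat probe, at base 4291, lay between 0.08 and 0.32 in CUS (median 0.22), against -0.49 to 0.10 in controls (median -0.21). Only control replicate 3, at 0.10, overlapped the CUS range. The difference was 0.44 (SE 0.10, adjusted p = 0.0041 in limma), 1.35-fold higher, and 1.28 on the spike-in scale (adjusted p = 5.9e-05).

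Col4a2, the partner chain, lay between 0.59 and 0.93 in CUS (median 0.82), against 0.09 to 0.65 in controls (median 0.28). The highest control was again replicate 3, and the others did not overlap with CUS. The difference was 0.50 (SE 0.10, adjusted p = 0.0019 in limma), 1.41-fold higher, and 1.34 on the spike-in scale (adjusted p = 4.8e-05).

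The second Col4a1 probe, at base 6519 and thus further toward the end of the message, did not follow. It lay between 5.83 and 6.32 in CUS (median 6.10), against 5.97 to 6.78 in controls (median 6.15), a difference of -0.18 (SE 0.14, adjusted p = 0.29 in limma). Its 95% interval ran between -0.49 and 0.12, while that of the repeat probe ran between 0.21 and 0.66, so the Col4a1 call rests on which probe is read. On the spike-in scale the second probe passed as higher, at 0.66 (adjusted p = 0.0096). That is below the median of all tested probes there (0.83), whereas the repeat probe lay above it.

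The other type IV chains differed the opposite way. Col4a5 lay between -3.65 and -2.28 in CUS (median -3.42), against -3.72 to -1.46 in controls (median -1.88), and differed by -1.13 (SE 0.36, adjusted p = 0.020 in limma). One array in each group stood apart, CUS replicate 1 at -2.28 and control replicate 3 at -3.72. Without control replicate 3 the difference was -1.45 (adjusted p = 0.00028), and with quantile normalization it was -0.92 and did not pass (adjusted p = 0.060).

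Col4a4 lay between -6.10 and -4.53 in CUS (median -5.35), against -6.04 to -3.05 in controls (median -3.58), and was well above background on 3 CUS and 5 control arrays. The difference was -1.31 (SE 0.46, adjusted p = 0.033 in limma). It did not pass when any of 7 single arrays was left out (CUS replicates 2, 3 and 4, control replicates 2, 4, 5 and 6), with an adjusted p of at most 0.071, and was -1.72 without control replicate 3 (adjusted p = 0.00051). With quantile normalization it was -0.84 (adjusted p = 0.19).

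Col4a3 was too dim to be tested. It was well above background on 0 CUS arrays and 4 control arrays. Its control mean was 2.63-fold above the CUS floor defined for Col11a1, which again is no minimum. A probe described as similar to Col4a6 lay between -3.33 and -2.65 in CUS (median -3.20), against -2.78 to -0.43 in controls (median -1.20), with a difference of -1.63 (SE 0.38, adjusted p = 0.0038 in limma), and was named after its values were seen. On the spike-in scale the differences of Col4a4, Col4a5 and the Col4a6-like probe kept their sign, at -0.46, -0.29 and -0.78. None of them passed there (adjusted p = 0.44, 0.55 and 0.061 in limma).

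The type IV genes lie head to head in pairs, each pair sharing the stretch between its start sites, and the shared stretch is shown for both pairs because Col4a2 and Col4a1 at base 4291 were higher while Col4a4 was lower. From the RefSeq annotation on build GRCr8, the starts of Col4a1 and Col4a2 are 76 bases apart (chr16:84885520-84885597 with the starts), and those of Col4a3 and Col4a4 are 412 bases apart, of which 88 bases in the middle are shared by both promoter windows (chr9:91323740-91323827). Capitals mark matches to GGGCGG, the core of the box bound by Sp1, or to CCAAT, the box bound by NF-Y, on either strand.
Col4a1-Col4a2: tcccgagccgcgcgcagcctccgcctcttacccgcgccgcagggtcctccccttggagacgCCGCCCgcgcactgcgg
Col4a3-Col4a4: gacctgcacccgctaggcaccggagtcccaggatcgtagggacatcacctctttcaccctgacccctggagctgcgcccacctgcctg

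The first stretch held GGGCGG on the minus strand and no CCAAT, and the second held neither. The starts of Col4a5 and Col4a6 are 1414 bases apart. A promoter window of 300 bases around the start was found for 27 of the 35 collagen genes. GGGCGG was in 15 of these 27 windows and in 33.1% of all 33469 windows of that length, and CCAAT in 6 of 27 and in 37.5%.

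Because both chains are read on the same array, a ratio between them does not depend on a scaling by 1 factor per array. The log2 ratio of Col4a2 over Col3a1 lay between -4.38 and -3.39 in CUS (median -3.76), against -6.11 to -4.18 in controls (median -5.58), and the group means differed by 1.67. That of Col4a1 at base 4291 over Col1a1 at base 4413 lay between -2.09 and -0.997 in CUS (median -1.30), against -3.20 to -1.43 in controls (median -3.06), and differed by 1.40. With quantile normalization the 2 differences were 1.74 and 1.48, and with normexp they were 1.56 and 1.26. In both, the 5 control arrays other than replicate 3 lay below every CUS array. These ratios were chosen after the single values were seen and carry no test, and such a ratio shows unequal change of 2 probes, not which of them changed.

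**Figure D3:**
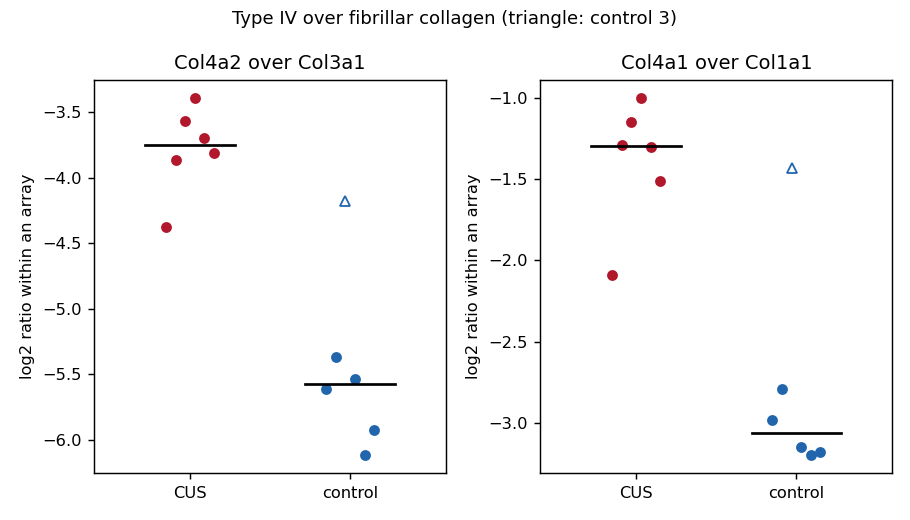
Log2 ratio of a type IV over a fibrillar collagen probe within each array, CUS arrays left and control arrays right, with the median as a bar and control replicate 3 as an open triangle. The ratio of Col4a2 over Col3a1 has medians of -3.76 in CUS and -5.58 in controls, and that of Col4a1 over Col1a1 has medians of -1.30 in CUS and -3.06 in controls. A scaling by 1 factor per array does not move these points.

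Of the 19 tested probes of other collagens (15 genes), 7 passed as lower, 1 as higher and 11 did not pass, with a median of -0.40. Scaled on the spike-ins, 6 passed as higher and 0 as lower, with a median of 0.45, where 65.9% of all tested probes passed as higher. Without control replicate 3, 13 passed as lower and 3 as higher, with a median of -0.72, that is 16 calls without this array, against 8 with it.

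Type VI collagen, made of Col6a1, Col6a2 and Col6a3, showed this dependence in Col6a1 and Col6a2. Col6a1 lay between 2.03 and 3.22 in CUS (median 2.48), against 0.93 to 3.47 in controls (median 3.19), a difference of -0.33 (SE 0.39, adjusted p = 0.49 in limma). Control replicate 3 was far below the other controls, at 0.93 against 3.14 and above, and without it the difference was -0.72 and passed (adjusted p = 0.0087).

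Col6a2 lay between 4.16 and 5.13 in CUS (median 4.49), against 3.50 to 5.46 in controls (median 5.20), a difference of -0.40 (SE 0.31, adjusted p = 0.29 in limma). Its lowest control was again replicate 3, at 3.50, and without it the difference was -0.69 (adjusted p = 0.0041). On the spike-in scale both were positive, Col6a1 at 0.51 and Col6a2 at 0.45, and neither passed (adjusted p = 0.30 and 0.28).

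Col6a3, whose cleaved end is the adipose hormone endotrophin, had 2 tested probes that passed in opposite directions. At base 5248 it lay between -6.83 and -4.44 in CUS (median -5.95), against -6.44 to -3.56 in controls (median -3.81), with 1 CUS array and 5 control arrays well above background. The difference of -1.62 (adjusted p = 0.017 in limma) was -0.82 with normexp, did not pass with quantile normalization (-1.08, adjusted p = 0.13), and was -2.07 without control replicate 3. At base 7150 it lay between -4.86 and -3.66 in CUS (median -4.59), against -7.00 to -5.50 in controls (median -6.75), without overlap. All 6 CUS arrays and 0 control arrays were well above background there. The probe thus entered the test through the CUS arrays alone, and its call cannot serve as support. Its CUS mean was 3.58-fold above a control floor set in the same way as for Col11a1, which is no minimum.

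The direction at base 7150 depended on the background correction, since with normexp this probe differed by -0.22. Both Col6a3 probes were dim, and a direction for the gene cannot be given.

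Collagens of the basement membrane zone other than type IV include Col15a1 and Col18a1, which carry long sugar chains and release anti-angiogenic fragments, and Col7a1, which forms anchoring fibrils under epithelia. Col15a1 lay between 4.69 and 5.05 in CUS (median 4.91), against 4.62 to 5.08 in controls (median 4.92). The difference was -0.02 (SE 0.09, adjusted p = 0.90 in limma), with a 95% interval between -0.22 and 0.19. On the spike-in scale it passed as higher, at 0.83, which is the value of the median probe there.

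Col18a1 lay between 2.51 and 2.94 in CUS (median 2.67), against 2.95 to 3.37 in controls (median 3.06), with no overlap. It differed by -0.42 (SE 0.10, adjusted p = 0.0038 in limma), 1.34-fold lower, and turned to 0.43 on the spike-in scale without passing (adjusted p = 0.071). Col7a1 was -0.38 (adjusted p = 0.013) and did not pass with quantile normalization (-0.15, adjusted p = 0.30).

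Col8a1, a short-chain collagen made by vascular smooth muscle and endothelium, lay between -3.59 and -2.37 in CUS (median -2.87), against -2.47 to -0.93 in controls (median -1.23). Control replicate 3, at -2.47, was the one control within the CUS range. It differed by -1.50 (SE 0.26, adjusted p = 0.00063 in limma), 2.82-fold lower, and by -0.65 on the spike-in scale (adjusted p = 0.090).

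Fibril-associated collagens coat type I and type II fibrils, and 2 of their 10 tested probes passed as lower (20.0%, no more than the 25.3% of all tested probes). Col12a1 at base 9123 lay between -5.05 and -4.17 in CUS (median -4.54), against -4.25 to -2.50 in controls (median -2.90), and differed by -1.50 (SE 0.27, adjusted p = 0.00087 in limma). Col12a1 at base 10050 lay between -1.10 and 0.11 in CUS (median -0.55), against -1.35 to 1.08 in controls (median 0.72), and its difference of -0.94 did not pass (SE 0.38, adjusted p = 0.053). In both, control replicate 3 was the lowest control, and without it the probe at base 10050 was -1.30 and passed (adjusted p = 0.00036).

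Col9a2, a cartilage chain, was dim and lay between -6.01 and -5.24 in CUS (median -5.89), against -4.93 to -4.25 in controls (median -4.66). It differed by -1.07 (SE 0.17, adjusted p = 0.00032 in limma) and by -0.23 on the spike-in scale, close to the values of probes never above background. The transmembrane Col17a1, of hemidesmosomes in skin, was lower by -0.89 with no overlap (SE 0.14, adjusted p = 0.00033), and its spike-in difference was -0.04.

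Of the other fibril-associated members, Col14a1 differed by -0.34 and -0.84 with its 2 probes, Col22a1 by -0.52, Col19a1 by -0.14, Col16a1 by 0.24 and Col9a1 by -0.31 and 0.38. None of these passed. Col14a1 (both probes) and Col22a1 passed as lower without control replicate 3, and Col16a1 and Col9a1 at base 2951 passed as higher.

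Collagen chains are modified, folded, trimmed and crosslinked by other proteins, and 5 lists of such genes were read from the same fit, each gene by its brightest tested probe. Over all tested probes 24.7% passed as higher and 25.3% as lower. The 16 tested enzymes and chaperones of maturation had shares near these, 3 higher (18.8%) and 4 lower (25.0%), with a median of 0.12. The higher ones were P4hb, a subunit of prolyl 4-hydroxylase (0.32, adjusted p = 0.0074), Colgalt1, which adds galactose to hydroxylysine (0.38, adjusted p = 0.0028), and Fkbp14, a folding enzyme of the reticulum (0.71, adjusted p = 0.0013). The lower ones were P4ha2, a catalytic subunit of prolyl 4-hydroxylase (-1.01, adjusted p = 0.0056), Plod2, the lysyl hydroxylase of crosslinking sites (-0.99, adjusted p = 0.013), and P3h3 and P3h4 (both -0.57). Serpinh1, the collagen chaperone HSP47, gave 0.13 and did not pass.

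Removal of the end peptides and crosslinking had 1 gene higher (10.0%), 3 lower (30.0%, near the share of all probes) and 6 not passed of 10, with a median of -0.39. Bmp1, the main C-proteinase of type I procollagen, was lower (-0.83, SE 0.15, adjusted p = 0.00097), as were its relatives Tll1 (-1.30, SE 0.11, adjusted p = 4.4e-06) and Tll2, the last one dim (-0.79). Lox, which starts crosslinks, was higher (0.58, SE 0.16, adjusted p = 0.0082). Without control replicate 3, 6 were lower, among them Pcolce, the enhancer of Bmp1 (-1.01, adjusted p = 0.0014).

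Among 8 fibril partners 0 were higher and 2 lower (25.0%, the share of all probes being 25.3%), with a median of -0.09. Bgn (biglycan), a small proteoglycan of fibrils, was -1.08 (adjusted p = 0.026) and Fn1 (fibronectin) was -0.67 (adjusted p = 0.0037). Dcn, Lum and Fmod, proteoglycans of the same family as Bgn, gave 0.23, 0.38 and 0.37 and did not pass.

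The 8 basement membrane partners had 2 members higher (25.0%), 4 lower and a median of -0.21. The nidogens, which tie type IV collagen to laminin, were higher, Nid1 by 0.52 (SE 0.15, adjusted p = 0.011) and Nid2 by 0.31 (SE 0.11, adjusted p = 0.038). Lama4 and Lama5, laminin chains, were lower (-1.40 with adjusted p = 0.00077, and -1.73 with adjusted p = 0.0023), as was Agrn (agrin; -0.89, adjusted p = 0.0033). Lamc1 was lower with its brightest probe (-0.36), and another probe of it gave 0.27 and passed as higher. Lamb1 and Lamb2 gave -0.06 and -0.01.

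Of 7 tested receptors and uptake genes 1 passed, the collagen and laminin receptor subunit Itga1 (-0.53, adjusted p = 0.0054), which is 14.3% lower calls, with a median of -0.30. Without control replicate 3, 4 were lower, among them Ctsk, the collagen-degrading cathepsin (-1.05), and Mrc2, the uptake receptor (-0.82). All lists had a median above 0.45 on the spike-in scale.

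**Figure D4:**
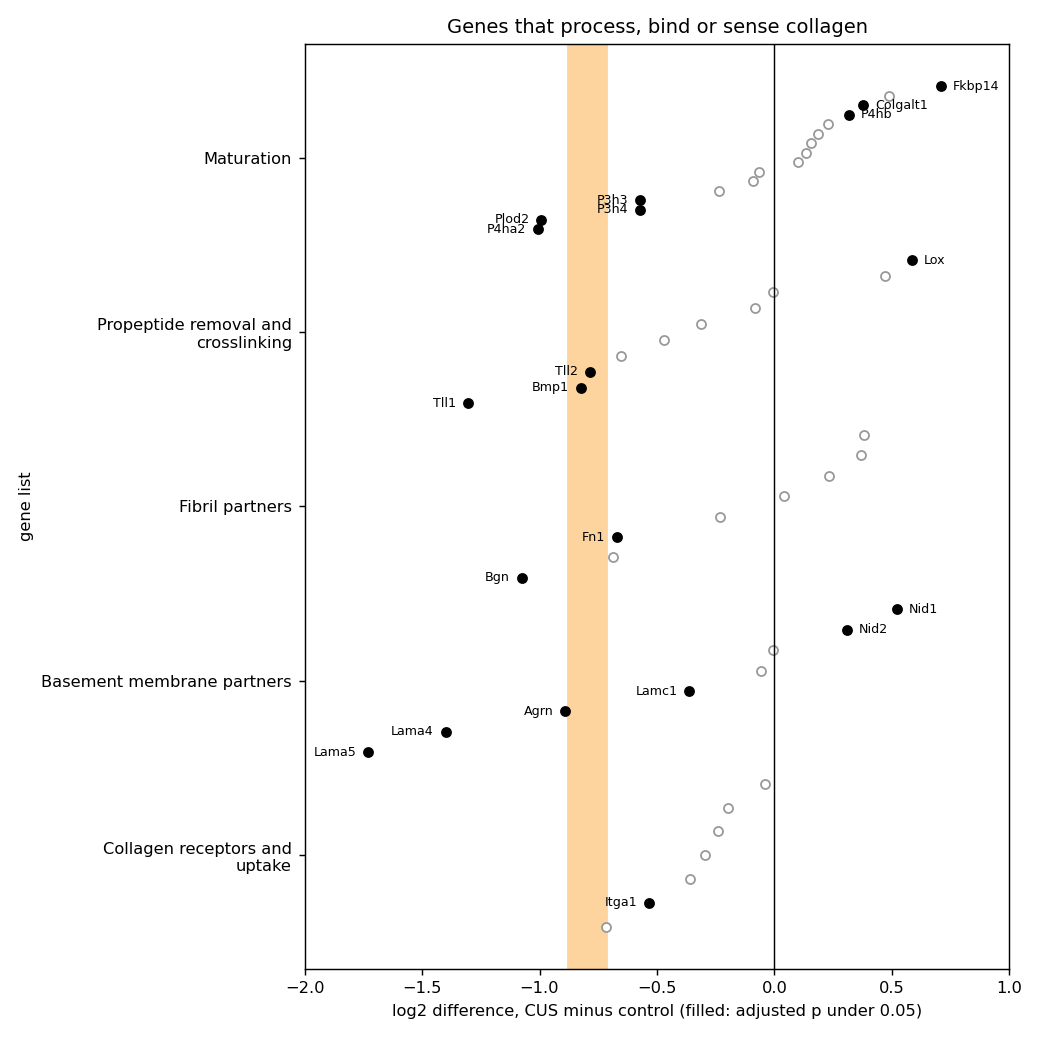
Log2 difference (CUS minus control, relative to the 75th percentile of each array) of genes that process, bind or sense collagen, by list and ordered within each list. Filled points with a name passed at an adjusted p of 0.05, open points did not, and the band spans the quartiles of probes never well above background. Nid1, Nid2, Lox, P4hb, Colgalt1 and Fkbp14 pass to the right, and all points move right by 0.84 on the spike-in scale.

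Since fat tissue holds other collagen producers, their markers were read on the same arrays, as sums of linear intensities in units of the 75th percentile of the array. Smooth muscle and pericyte markers, 6 of 9 lower and 1 higher with a median of -1.35, summed to 13.8 to 22.0 in CUS, against 14.0 to 56.6 in controls, where control replicate 3 was lowest. Of all tested probes, 25.3% were lower and 24.7% higher. Among the lower markers, Cnn1 (-2.54) was well above background on 1 CUS array and 5 control arrays, and was -1.03 with normexp. The other lower markers of this list ran between -2.88 and -0.99 with normexp. Endothelial markers, 4 of 8 lower and 0 higher with a median of -0.48, summed to 20.1 to 40.3 in CUS, against 19.0 to 82.1 in controls, with control replicate 3 lowest again.

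The same control array was thus low in the collagens of types I, III, VI and VIII and in both vascular lists. It also had the lowest sum of all 12 arrays for macrophage markers (5.31), mesothelial markers (2.15) and red blood cell markers (32.4). For 4 of 6 fibroblast and progenitor markers (Pdgfra, Pi16, Cd34 and Fap) it was the lowest control. The defining markers were measured in both groups and not at 0, for example Acta2 at -0.15 in CUS and 1.56 in controls on average (difference -1.71, adjusted p = 0.0022), and Pecam1 at 2.63 in CUS and 4.09 in controls (difference -1.46, adjusted p = 0.0056). The part of these cells in the collagen differences was not tested.

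Fibroblast and progenitor markers did not move as 1 group, with 2 higher (33.3%) and 1 lower (16.7%) of 6 and a median of -0.69. Dpt and Mfap5 were higher (0.34 and 0.26), Cd34 was lower (-0.999), and Pdgfra, Pi16 and Fap gave -0.76, -0.80 and -0.61 and did not pass (adjusted p = 0.12, 0.10 and 0.24). With control replicate 3 left out, 4 of the 6 were lower and 2 higher. The sum lay between 71.8 and 96.2 in CUS, against 68.6 to 87.3 in controls. Most of it came from Mfap5, the brightest member, at 6.06 in CUS and 5.80 in controls on average, so that it says little about the dimmer markers.

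Adipocyte markers were present on all arrays, with 3 higher (37.5%) and 2 lower (25.0%, near the share of all probes) of 8 and a median of 0.27. Their sum lay between 1398 and 1681 in CUS, against 1342 to 2615 in controls, with control replicate 3 highest. Genes of other cells moved as well. Higher in CUS were 4 of 4 red blood cell markers (median 4.89) and 4 of 5 mast cell markers (median 3.53). So were 3 of 5 mesothelial markers (median 1.38) and 2 of 6 macrophage markers (median 0.64), where 24.7% of all tested probes were higher. By the brightest probe 0 were lower in these lists, but another probe of Csf1r, a macrophage call, gave -1.25 and passed as lower. Without control replicate 3, the macrophage marker Cd68 passed as lower (-0.74, adjusted p = 0.011 in limma). So did the mesothelial marker Wt1 (-0.56, adjusted p = 0.0013). With normexp the mesothelial calls Msln, Krt19 and Krt8 were 1.41, 0.30 and 0.49. Of 4 Schwann cell markers 1 was higher and 2 were lower (median -0.70). The mast cell marker Ms4a2 was well above background on 6 CUS and 0 control arrays, so its call cannot serve as support. With normexp Ms4a2 differed by -0.21. Cpa3, whose difference is the mast cell median, was well above background on 1 control array and was 0.88 with normexp. Cma1 and Tpsab1 stayed positive with normexp, at 2.61 and 1.72, and Kit, which had not passed, was -0.29.

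**Figure D5:**
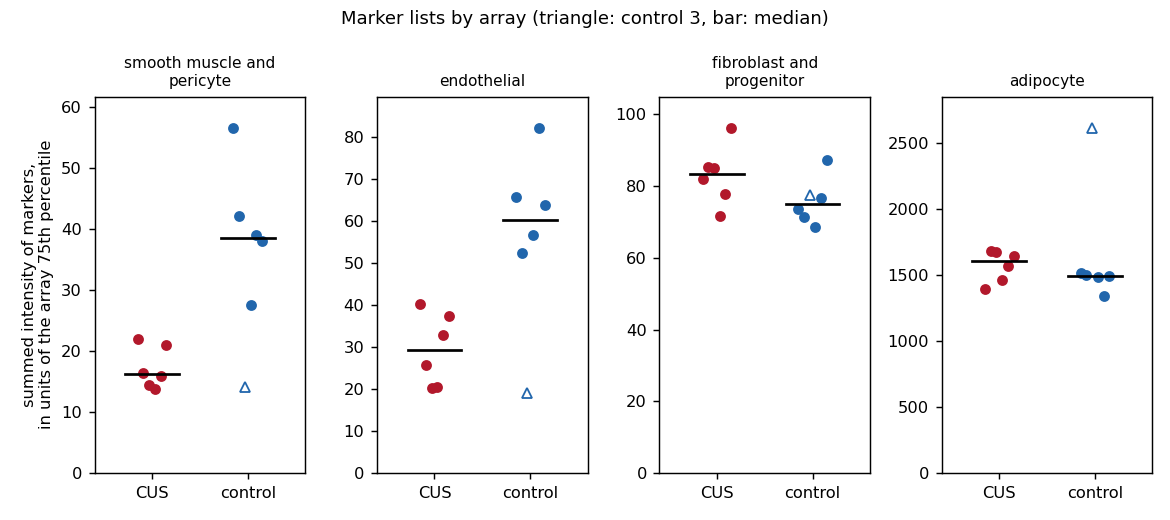
Summed linear intensity of marker genes in units of the 75th percentile of the array, CUS arrays left and control arrays right, for 4 lists, with the median as a bar and control replicate 3 as an open triangle. The sums for smooth muscle (14.0) and endothelium (19.0) place control replicate 3 with the CUS arrays, and its adipocyte sum of 2615 is the highest of all.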

How the data were processed

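The authors deposited scanner output in which Agilent Feature Extraction (10.7.3.1, per the file headers) had subtracted background from the spot intensity, and a table of normalized intensity values of the same arrays, used as an alternative. An exon array is named in the methods, whereas the deposited files come from a gene expression design. Outlier spots were dropped, replicate spots averaged, and log2 intensities expressed against the array's 75th percentile. The 19729 probes above background on 6 or more of the 12 arrays entered limma 3.58.1 in R 4.3.3, two-sided, with no covariate and Benjamini-Hochberg adjustment over all of them (threshold 0.05). The procedure was tested on simulated data. Intervals are 95% intervals. P-values measure the spread between rats. The number of arrays limits precision, and so does background for dim probes: per array, 60.4% to 67.3% of probes exceeded it clearly.

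Values by group are given for Col1a1, Col1a2, Col3a1, the type V and VI chains, Col4a1, Col4a2, Col15a1, Col18a1 and members past 2-fold. Other members are named to account for them all, and genes of the lists after their values were seen. Members and lists were chosen with earlier results of these data known. Replicate numbers give the position on the slide, and the labels name no pairing of rats. Other scalings, filters, variance models and tests were tried, and each array was left out in turn. Python 3.11.15 with NumPy 2.4.6 and pandas 2.3.3 made the tables. The sequence of 1 probe is not reported here.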

Additional observations from a re-analysis of the deposited data

Results flagged for a closer look

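In 25 named probes, each of the 2 groups was examined for an array far from the other 5, and 11 of these 50 groups held one, where chance gives about 1 in 20. In 10 of the 11 it was control replicate 3, which was the lowest control. Its gap to the next control, as a share of the range of the controls, was 0.858 and 0.753 for the Col1a1 probes at bases 4413 and 5717, 0.884 for Col1a2, 0.870 for Col6a1, 0.829 for Col6a2 and 0.808 for Col6a3 at base 5248. It was 0.748 for Col12a1 at base 10050, 0.670 for Col8a1, 0.647 for Col4a4 and 0.672 for Col4a5. The other was CUS replicate 1, the highest CUS array for Col4a5, with a gap of 0.634. No array stood apart in this way for Col3a1, Col5a2, Col4a1 or Col4a2.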

How the results depend on the processing

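The 20 collagen calls (3 higher, 17 lower) became 32 with array weights, 31 with no filter on dim probes, 10 with the methods' test at 2-fold before adjustment and 9 after it, and 12 on the spike-in scale, all higher. Fibrillar calls (8) became 3 with either form of the methods' test, 3 on the spike-in scale (all higher) and 5 when genes were read by the brightest probe. Type IV calls (4) became 2 with the authors' table, quantile normalization or the methods' test before adjustment, 1 after it, 3 on the spike-in scale (all higher) and 3 (2 higher, 1 lower) with probes well above background on all arrays. The other 8 calls became 17 with array weights or no filter, 5 with the methods' test or the strict filter, and 6 on the spike-in scale (all higher). Leaving out 1 array gave 19 to 31 calls in all, 8 to 11 fibrillar, 3 to 4 type IV and 8 to 16 other. The highest totals came without control replicate 3.

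The medians turned positive on the spike-in scale (all 0.28, type IV 0.66, other 0.45), as did that of type IV under the strict filter (0.13). Among the 25 named probes, differences that turned on the spike-in scale were those of Col5a1 (0.60), Col5a2 (0.53 and 0.23), Col5a3 (0.46), Col15a1 (0.83), Col18a1 (0.43), Col6a1 (0.51), Col6a2 (0.45) and Col4a1 at base 6519 (0.66). With normexp, Col6a3 at base 7150 turned to -0.22 and Col15a1 to 0.066, and Col15a1 also with median centring (0.020) and without single arrays (-0.074 to 0.025). The cause was not tested. Of 594 values for these probes, 525 kept direction and call.

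With the replicate number as a block, 26 collagen probes were called (5 higher, 21 lower) in place of 20. The labels name no pairing of rats with the same number. The correlation of their deviations ran between -0.19 and 0.43, which cannot decide whether rats were paired. Dim members (types II, IX and XI, Col4a3, Col4a4, Col6a3) are limited by background.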
